A study of Homo sapiens with 4 samples.

Results

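Human chromosome 19 carries the densest set of genes of any human chromosome and, besides, long clusters of zinc finger genes named ZNF. The peaks described here are the BAF45D peaks of chromosome 19 that lie more than 1 kb from every protein-coding ZNF gene in the RefSeq annotation of GRCh38. They numbered 776 in NSC1, 676 in NSC2, 232 in ESC1 and 628 in ESC2, out of 28887, 23942, 4054 and 12159 autosomal peaks in the same lists. Merging overlapping peaks of the 4 libraries gave 1203 regions, out of 43134 on all 22 autosomes. The members were selected on position and on the presence of a called peak, so their density against the rest of the genome is a description and was not tested.

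BAF45D, the product of DPF2, is a subunit of the BAF complex, which uses ATP to move or eject nucleosomes and so opens promoters and enhancers. BAF complexes are known for exchanging subunits as pluripotent cells become neural cells. In CUT&Tag an antibody against the protein tethers a transposase to chromatin, and the DNA cut there is sequenced, so a peak marks a place near the bound protein.

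The neural stem cells (NSC, libraries NSC1 and NSC2) were spinal cord neural stem cells made from the H9 line by 10 days of neural induction and then kept in maintenance medium. The embryonic stem cells (ESC, libraries ESC1 and ESC2) were undifferentiated H9 cells, an established human line. Each assay used 100000 cells and the same anti-BAF45D antibody, and no genotype or drug set the groups apart. All libraries come from 1 line, and the labels do not say whether libraries of a cell type came from separate cultures. The p-values below therefore concern only these libraries, whose differences may be technical. They do not measure the spread between libraries, since groups that separate fully give the same p whatever their spread. Expression was not measured, so the cell types are taken from the labels. With bulk cells, binding in fewer cells and weaker binding in every cell cannot be told apart.

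The lists came from 5566407 and 5377831 tags in NSC1 and NSC2 and from 20734829 and 18953543 tags in ESC1 and ESC2, so the longer NSC lists came from the shallower libraries. ESC1 stands apart, with a list a good deal shorter than that of ESC2 at about the same depth. The main results that rest on ESC are therefore given per library as well. The strength of a peak is the authors' −log10 q, the evidence against the signal around the peak in that library. It is used here only to rank peaks within a list.

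Promoter sequences are shown because the classes of regions used below differ in them. A region is called NSC-only when both NSC libraries and no ESC library had a peak there, ESC-only in the converse case, and shared when all 4 libraries had one. The windows run from 250 bp before to 50 bp after a RefSeq start, in GRCh38.p14 and 5′ to 3′ on the gene's strand. Capitals mark CCAAT on either strand (CCAAT or ATTGG), the motif known as the binding site of the factor NF-Y. The NSC-only examples are RPS28, which encodes a protein of the small ribosomal subunit (chr19:8321246-8321545, plus strand), and the olfactory receptor gene OR7A5 (chr19:14835136-14835435, minus strand). The ESC-only example is SH2D3A, an adaptor protein gene (chr19:6767386-6767685, minus strand), whose window was the only ESC-only window of chromosome 19. The shared examples are HDGFL2, a chromatin reader (chr19:4472047-4472346, plus strand), HNRNPL, a splicing regulator (chr19:38849937-38850236, minus strand), and NDUFA11, a subunit of respiratory complex I (chr19:5903741-5904040, minus strand).
RPS28: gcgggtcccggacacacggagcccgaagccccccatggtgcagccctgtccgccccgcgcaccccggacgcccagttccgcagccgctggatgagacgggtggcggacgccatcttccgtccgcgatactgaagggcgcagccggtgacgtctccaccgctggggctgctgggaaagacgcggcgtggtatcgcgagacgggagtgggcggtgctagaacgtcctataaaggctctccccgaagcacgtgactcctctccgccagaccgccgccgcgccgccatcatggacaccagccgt
OR7A5: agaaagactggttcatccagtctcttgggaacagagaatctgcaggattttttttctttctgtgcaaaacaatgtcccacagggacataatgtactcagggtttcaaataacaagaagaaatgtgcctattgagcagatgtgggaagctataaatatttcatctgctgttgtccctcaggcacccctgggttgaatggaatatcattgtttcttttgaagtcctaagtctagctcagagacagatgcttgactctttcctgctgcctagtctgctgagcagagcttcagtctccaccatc
SH2D3A: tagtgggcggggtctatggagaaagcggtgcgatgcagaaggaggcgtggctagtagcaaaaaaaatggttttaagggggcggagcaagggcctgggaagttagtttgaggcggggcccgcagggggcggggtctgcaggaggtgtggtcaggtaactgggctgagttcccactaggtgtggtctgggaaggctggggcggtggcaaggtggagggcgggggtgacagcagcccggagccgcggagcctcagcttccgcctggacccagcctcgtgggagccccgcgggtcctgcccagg
HDGFL2: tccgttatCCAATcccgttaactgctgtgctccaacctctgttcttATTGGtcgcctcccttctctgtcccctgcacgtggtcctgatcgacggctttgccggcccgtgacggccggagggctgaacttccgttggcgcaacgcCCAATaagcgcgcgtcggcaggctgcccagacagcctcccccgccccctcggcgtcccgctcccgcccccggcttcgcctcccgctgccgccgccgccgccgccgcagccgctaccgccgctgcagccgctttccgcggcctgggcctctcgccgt
HNRNPL: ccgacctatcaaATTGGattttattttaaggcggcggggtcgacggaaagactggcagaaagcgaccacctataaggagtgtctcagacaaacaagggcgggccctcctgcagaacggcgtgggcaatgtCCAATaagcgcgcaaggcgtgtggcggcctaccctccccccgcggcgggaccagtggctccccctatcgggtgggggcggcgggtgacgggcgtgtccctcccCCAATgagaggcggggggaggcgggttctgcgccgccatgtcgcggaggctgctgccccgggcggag
NDUFA11: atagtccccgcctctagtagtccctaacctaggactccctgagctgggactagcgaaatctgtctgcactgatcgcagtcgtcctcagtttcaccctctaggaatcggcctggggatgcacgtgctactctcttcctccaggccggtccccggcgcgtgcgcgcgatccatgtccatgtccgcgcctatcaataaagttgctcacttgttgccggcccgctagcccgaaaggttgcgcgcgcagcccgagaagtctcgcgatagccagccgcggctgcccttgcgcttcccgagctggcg
HDGFL2 and HNRNPL hold 3 CCAAT motifs each, and RPS28, OR7A5, SH2D3A and NDUFA11 hold 0. The OR7A5 window holds 0 CpG dinucleotides at 43.3% GC, whereas the RPS28 window holds 38 CpG at 70.0% GC. HNRNPL was added to the pair of shared examples that the naming rule gives, to show the motif. The shared window that follows it by rank, that of MYADM, is not shown and holds 0 CCAAT motifs.

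Chromosome 19 had the highest peak density of the 22 autosomes in each of the 4 libraries. It carried 15.2 peaks per Mb in NSC1, against 10.1 over the other autosomes, and 13.3 against 8.39 in NSC2. In ESC1 it carried 4.55 against 1.38 peaks per Mb, and in ESC2 12.3 against 4.14. The excess over the other autosomes was 1.50-fold and 1.58-fold in the NSC libraries and 3.302-fold and 2.98-fold in the ESC libraries, and the values of the 2 cell types do not overlap. Chromosome 17, the next highest, had 13.3 peaks per Mb in NSC1 and 6.79 in ESC2. Chromosome 19 also has the most protein-coding genes outside the ZNF family, 1160 genes or 22.7 per Mb, against 13.8 per Mb on chromosome 17. Counted per gene the order turned round. Chromosome 19 had 0.669 peaks per gene in NSC1 and 0.583 in NSC2, the lowest of the 22 autosomes, and 0.200 in ESC1 and 0.541 in ESC2, the 14th and the 18th from the highest. Peaks within 1 kb of ZNF genes, which are left out here, numbered 157, 135, 30 and 126 in NSC1, NSC2, ESC1 and ESC2.

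**Figure D1:**
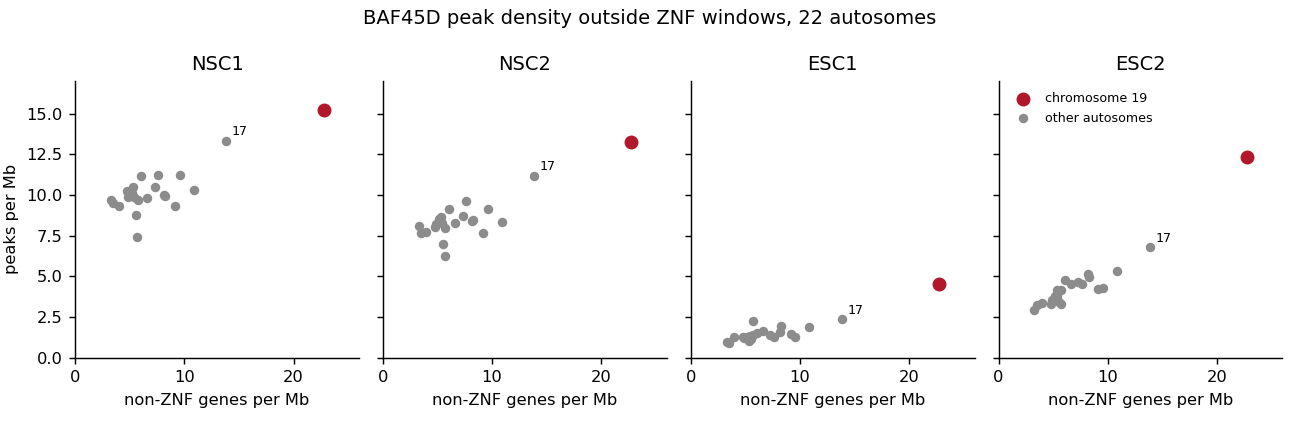
BAF45D peaks per Mb (vertical axis) against non-ZNF protein-coding genes per Mb (horizontal axis) outside ZNF windows, 1 panel per library and 1 point per autosome. Chromosome 19, with 22.7 genes per Mb, is the highest point in all 4 panels, from 4.55 peaks per Mb in ESC1 to 15.2 in NSC1.

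NSC had 726 ± 70.7 peaks on chromosome 19 and ESC had 430 ± 280 (SD, n = 2 each), a ratio of 1.69 between the means. The exact permutation test gave a two-sided p of 0.333, which is the smallest that 2 libraries against 2 can give. On the other autosomes the same ratio was 3.36, and chromosome 19 had the lowest of the 22. Without ESC1 the ratio was 1.16 on chromosome 19, against 2.24 on the other autosomes, and without ESC2 it was 3.13 against 6.72. Taking the strongest 4054 peaks of each list, the length of the shortest, turned the ratio on chromosome 19 to 0.68, fewer in NSC than in ESC.

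Gene ends took a larger part of the chromosome 19 peaks in NSC than in ESC. Within 1 kb of an end of a protein-coding gene lay 55.5% of the peaks of NSC1 and 56.7% of NSC2, against 45.3% of ESC1 and 42.7% of ESC2, a difference of 12.1 percentage points (56.1% ± 0.789 against 44.0% ± 1.83, SD, n = 2 each; exact permutation p = 0.333, two-sided). On the other autosomes the NSC libraries had 26.4% and 27.6% there and the ESC libraries 24.8% and 30.3%, ranges that overlap. Inside genes, away from their ends, lay 27.4% and 27.5% of the chromosome 19 peaks in NSC1 and NSC2, against 37.1% and 36.1% in ESC1 and ESC2. In number, ESC2 had 227 peaks inside genes of chromosome 19, more than the 213 of NSC1 and the 186 of NSC2, although its list is shorter than both. Outside genes lay 17.01%, 15.8%, 17.7% and 21.2% in NSC1, NSC2, ESC1 and ESC2, against 37.3%, 37.2%, 48.1% and 39.8% on the other autosomes. Set against the density of the other autosomes, chromosome 19 had 3.15 and 3.25 times as many gene-end peaks per Mb in NSC1 and NSC2, and 6.02 and 4.19 times in ESC1 and ESC2. Inside genes the excess was 1.14 and 1.23 times in the NSC libraries, against 4.52 and 3.61 times in the ESC libraries. Outside genes, chromosome 19 was below the other autosomes in NSC, at 0.684 and 0.673 times their density, and above them in ESC, at 1.21 and 1.58 times.

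**Figure D2:**
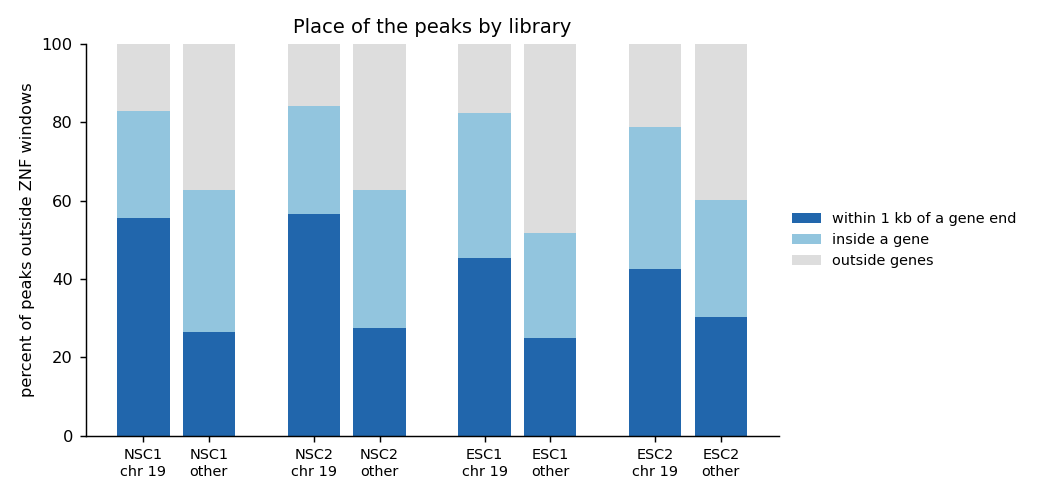
Percent of the peaks outside ZNF windows that lie within 1 kb of a gene end, inside a gene or outside genes, for each library on chromosome 19 (left bar) and on the other autosomes (right bar). Gene ends take 55.5% and 56.7% of the chromosome 19 peaks in NSC1 and NSC2, against 45.3% and 42.7% in ESC1 and ESC2.

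Summits of chromosome 19 gathered just upstream of transcription starts, closer to them in NSC than in ESC. Among summits within 1 kb of a RefSeq start, the median position was 105 bp upstream in NSC1 and 110 bp in NSC2, against 220 bp in ESC1 and 179.5 bp in ESC2. On the other autosomes it was 54, 61, 134 and 105 bp upstream in NSC1, NSC2, ESC1 and ESC2, so the order of cell types was the same there. Inside the promoter window, from 250 bp before to 50 bp after a start, lay 31.3% and 32.0% of the NSC1 and NSC2 summits of chromosome 19, against 17.7% and 17.4% of the ESC1 and ESC2 summits. These shares were 16.005%, 17.3%, 15.3% and 18.3% on the other autosomes, where NSC and ESC overlap. The median distance of a summit from the nearest start was 1.45 and 1.08 kb in the NSC libraries and 4.15 and 4.88 kb in the ESC libraries, against 24.5 to 46.8 kb on the other autosomes.

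Libraries shared more of their peaks on chromosome 19 than elsewhere. Of the 676 NSC2 peaks, the shorter NSC list, 82.0% overlapped an NSC1 peak by at least 1 bp (95% Wilson interval 78.9 to 84.7%), against 74.3% on the other autosomes. Of the 232 ESC1 peaks, 84.5% (79.3 to 88.6%) overlapped an ESC2 peak, against 58.3%. As a share of the longer lists these overlaps were 69.7% of the NSC1 peaks and 30.6% of the ESC2 peaks. In the 4 pairs of an NSC and an ESC library, 49.7 to 57.3% of the ESC peaks of chromosome 19 had an NSC partner, against 35.3 to 38.3% on the other autosomes. Chromosome 19 ranked the highest of the 22 autosomes in 5 of the 6 pairs, with chromosome 17 above it for ESC1 peaks found in NSC2. Between cell types the gap lay away from gene ends. There 31.9 to 37.0% of the ESC peaks of chromosome 19 had an NSC partner over the 4 pairs, against 18.2 to 23.01% on the other autosomes, while at gene ends it was 73.5 to 82.9%, against 74.6 to 85.9%. In the NSC pair the shares were 89.0% at gene ends and 72.7% away from them, against 84.3% and 70.5%. In the ESC pair 74.0% of the ESC1 peaks away from gene ends were shared with ESC2 on chromosome 19, against 47.2% on the other autosomes.

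Of the 1203 regions of chromosome 19, 237 were NSC-only (19.7%, 95% Wilson interval 17.6 to 22.04%), against 31.1% of the regions of the other autosomes. ESC-only regions numbered 55 (4.57%, 3.53 to 5.90%), against 1.59%. Shared regions numbered 125 (10.4%, 8.79 to 12.2%), against 3.06%. Chromosome 19 had the lowest share of NSC-only regions and the highest shares of ESC-only and shared regions among the 22 autosomes. Peaks of 1 library alone made up 230 regions in ESC2 (19.1%, against 14.6% on the other autosomes) and 208 in NSC1 (17.3%, against 24.9%). Both NSC libraries with ESC2 but not ESC1 made up 164 regions (13.6%), against 5.62%. At gene ends 25.7% of the regions were NSC-only, against 30.3%, 2.48% were ESC-only, against 0.566%, and 15.8% were shared, against 8.78%. Away from gene ends 15.04% were NSC-only, against 31.4%, 6.19% were ESC-only, against 1.86%, and 6.19% were shared, against 1.51%. The classes lay in different places: 57.0% of the NSC-only regions of chromosome 19 and 66.4% of the shared ones were at gene ends, but 23.6% of the ESC-only ones, of which 49.1% were inside genes.

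Away from gene ends, places bound in NSC far more often had an ESC peak too on chromosome 19 than elsewhere. NSC1 and NSC2 both had a peak in 527 regions, of which 290 overlapped a peak of ESC1, ESC2 or both (55.0%, 50.8 to 59.2%), against 21.9% on the other autosomes. At gene ends it was 191 of 326 (58.6%, 53.2 to 63.8%), against 47.9%. Away from gene ends it was 99 of 201 (49.3%, 42.4 to 56.1%), against 10.2%, and the next highest autosome, chromosome 17, had 23.1%. Inside genes the share was 51.1%, against 9.43%, and outside genes it was 45.7%, against 10.8%. Both ESC libraries showed it. Away from gene ends 21.4% of the regions had an ESC1 peak, against 4.44%, and 48.8% had an ESC2 peak, against 10.0%.

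**Figure D3:**
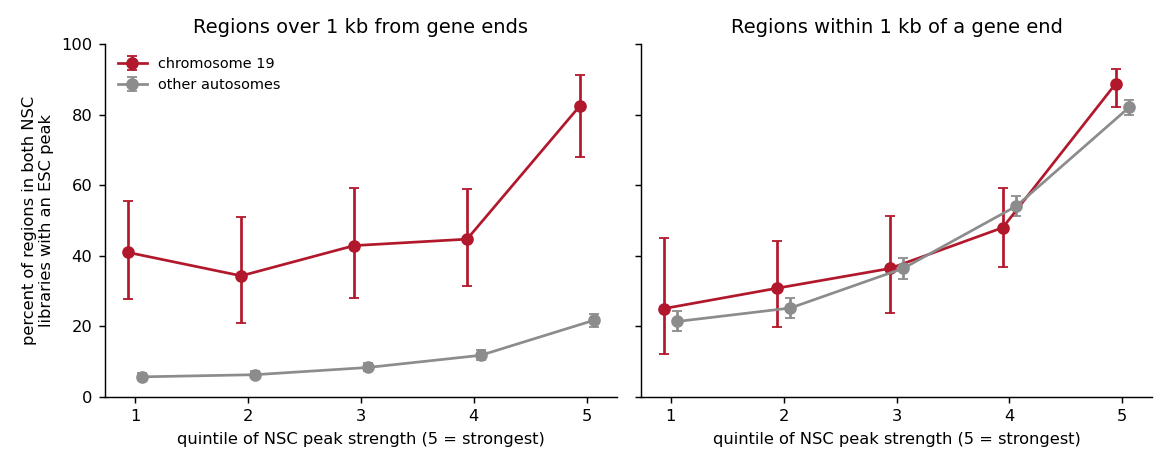
Percent of the regions called in NSC1 and NSC2 that also have an ESC peak, by quintile of NSC strength, on chromosome 19 and on the other autosomes, with 95% Wilson intervals. Away from gene ends (left panel) chromosome 19 lies at 34.3 to 82.5% and the other autosomes at 5.65 to 21.7%, while at gene ends (right panel) the intervals overlap in every quintile.

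Strength, nearby genes and unrecorded starts were looked at beside this share. In quintiles of NSC strength, from the weakest to the strongest, the share away from gene ends was 40.9%, 34.3%, 42.9%, 44.7% and 82.5% on chromosome 19, and 5.65%, 6.26%, 8.30%, 11.8% and 21.7% on the other autosomes. The intervals do not overlap in any quintile. In the strongest quintile 50% of the chromosome 19 regions had an ESC1 peak and 82.5% an ESC2 peak, against 13.3% and 21.5%. At gene ends the weakest and strongest quintiles had 6 of 24 regions and 88.7% on chromosome 19, and 21.4% and 82.1% elsewhere. Gene density moved with the share: within 500 kb of the region lay a median of 29 protein-coding genes on chromosome 19 and 6 on the other autosomes. Among regions with 30 or more genes nearby, 55.8% (45.3 to 65.8%) had an ESC peak on chromosome 19 and 39.2% (33.2 to 45.6%) on the other autosomes. With 20 to 29 genes nearby the shares were 52.2% (40.5 to 63.7%) and 31.5% (27.1 to 36.2%), and with 0 to 4 genes they were 15.4% of 13 regions and 5.94%. The intervals for 30 or more genes overlap between chromosome 19 and the rest, and those for 20 to 29 do not. Strength and gene density were then held at once. Among regions with at least 20 genes nearby, the shares from the weakest to the strongest quintile were 42.9%, 42.9%, 50%, 50% and 86.7% on chromosome 19, against 22.6%, 22.05%, 26.9%, 43.2% and 64.1% on the other autosomes. Chromosome 19 was the higher in all 5 quintiles, but the intervals overlap in every one, with 26 to 35 regions of chromosome 19 in each. Distance from gene ends moved with the share as well. From 1 to 5 kb it was 64.9% (53.5 to 74.8%), against 26.6%, from 5 to 20 kb 48.8%, against 17.5%, and beyond 20 kb 23.3% of 43 regions (13.2 to 37.7%), against 6.92%. Leaving out regions within 1 kb of the end of any RefSeq gene or of any start in the promoter table left 145 regions of chromosome 19 with 45.5% (37.6 to 53.6%), against 6.98%. Whether copy number, mappability or open chromatin differ between these places was not tested.

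The strongest NSC-only regions of chromosome 19 lay at promoters. Strengths are given as −log10 q in NSC1 and then NSC2, and no peak was called there in ESC1 or ESC2. The promoter shared by NDUFA7, a complex I subunit, and RPS28 had 22.9 and 18.7 (chr19:8321206-8321809). The region at OR7C1 and OR7A5, both olfactory receptors, had 18.8 and 20.4 (chr19:14835038-14835741). CDKN2D, an inhibitor of the kinases that drive cells out of G1 phase, had 15.5 and 22.8. The promoter of MOB3A and IZUMO4 had 24.7 and 13.9, that of JUND, a member of the AP-1 transcription factor, 16.9 and 16.6, and that of PLEKHJ1 and the splicing factor SF3A2 23.1 and 12.7. All 6 are at gene ends, and their mean rank percentile in the NSC lists was 90.6 to 94.3. Away from gene ends the strongest lay in a gene-poor stretch, 845 kb from the nearest protein-coding gene, UQCRFS1 (chr19:28359512-28360340), with 12.9 and 20.9.

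Of the 6 strongest ESC-only regions, 4 lay inside genes. Strengths are those of ESC1 and then ESC2, with no peak in NSC1 or NSC2. The region inside HCN2, a pacemaker channel gene expressed in neurons, had 13.2 and 25.2 (chr19:605282-605787) and lay 15.4 kb from the nearest start in the promoter table. The others inside genes were in DPP9, a dipeptidyl peptidase, with 10.3 and 40.7, over the start of its antisense gene DPP9-AS1, in MAST1, a microtubule-associated kinase of neurons, with 12.7 and 20.4, and in REX1BD, with 10.2 and 23.2. The region nearest to BSPH1, a sperm-binding protein gene, was outside genes, 16.8 kb away, with 15.1 and 19.7. FBXO27, an F-box gene, had the only gene-end region of the 6, with 9.39 and 28.1. 

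The strongest shared regions lay at gene ends or over starts, save 1 that was inside a gene and away from both. Strengths run NSC1, NSC2, ESC1, ESC2. The promoter of NDUFA11 and VMAC had 76.7, 72.6, 36.8 and 76.8 (chr19:5903699-5904967). HDGFL2 had 82.4, 48.3, 24.3 and 45.9. Inside MYO1F, which encodes a myosin of immune cells, a region 11.2 kb from the nearest start had 72.3, 58.7, 29.0 and 64.3 (chr19:8525414-8526115). HNRNPL had 45.6, 36.8, 26.2 and 45.8, and MYADM, a myeloid membrane protein gene, had 51.3, 51.3, 19.8 and 60.5. Both of these lie over a start that is not an end of the gene in the table, and so count as inside. Further shared regions away from gene ends were in CELF5, a splicing regulator of neurons, with 39.5, 25.6, 16.01 and 61.8, in PLAUR, the urokinase receptor, with 34.5, 39.9, 11.4 and 48.5, and in the kinase gene LMTK3, with 36.9, 27.8, 10.3 and 26.3. The PLAUR region lies over a start listed for another gene, LOC124904724. LMTK3 also held a separate ESC-only region, with 7.08 and 17.4 in ESC1 and ESC2.

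The share of genes with a gene-end peak was slightly lower on chromosome 19 than on the other autosomes in NSC, and higher in ESC. By this share chromosome 19 ranked 16th of the 22 autosomes in NSC1 and in NSC2, 1st in ESC1 and 5th in ESC2. Of the 1160 non-ZNF genes, a peak lay at an end of 477 in NSC1 (41.1%, against 43.6% on the other autosomes) and of 424 in NSC2 (36.6%, against 38.8%). In ESC1 it was 125 (10.8%, against 6.60%) and in ESC2 301 (25.9%, against 22.8%). The 95% Wilson intervals of chromosome 19 and the other autosomes overlap in NSC1 (38.3 to 43.98% and 42.8 to 44.3%) and in NSC2 (33.8 to 39.4% and 38.1 to 39.5%), and not in ESC1 or ESC2. Chromosome 19 minus the other autosomes was −2.34 ± 0.161 percentage points for the NSC pair and 3.67 ± 0.722 for the ESC pair (SD, n = 2), a difference of −6.00 (exact permutation p = 0.333, two-sided). At equal list length this difference became 0.488, so it depends on the length of the lists. NSC-only genes were 154 (13.3%, against 16.7%), ESC-only genes 8 (0.690%, against 0.220%) and shared genes 112 (9.66%, against 5.84%). Peaks of NSC1 and NSC2 met at 399 genes, and 245 of these had an ESC peak (61.4%, 56.5 to 66.0%), against 52.6%.

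The gene lists of chromosome 19 ran from every gene to none, and are read against the 41.1%, 36.6%, 10.8% and 25.9% of all its non-ZNF genes in NSC1, NSC2, ESC1 and ESC2, and the NSC-only counts against 13.3%. All 12 ribosomal protein genes had a gene-end peak in NSC1 and in NSC2, 3 in ESC1 and 7 in ESC2. RPS19 and RPS9 were among the shared ones, and RPS28, RPS16, RPS15 and RPL36 were among the 5 that were NSC-only. Of 31 cell cycle, replication and repair genes, 25 and 23 had a peak in NSC1 and NSC2, but 2 and 7 in ESC1 and ESC2, and 16 were NSC-only. Among those 16 were CDKN2D, HAUS8 of the augmin spindle complex (21.3 and 8.97 in NSC1 and NSC2), the single-strand break repair scaffold XRCC1 (12.99 and 10.4) and the RNA polymerase II subunit POLR2E (10.9 and 10.6). POLR2E is a transcription gene, so the list reaches beyond its name. PPP2R1A, the scaffold of phosphatase PP2A, was shared (51.7, 30.3, 10.9 and 22.2 in NSC1, NSC2, ESC1 and ESC2). Of 21 mitochondrial genes, 15 and 13 had a peak in the NSC libraries, against 3 in ESC1 and 11 in ESC2, and 1 was NSC-only. TOMM40 and TIMM44, of the import machinery, were among the 3 shared ones. These counts are descriptions of short lists and were not tested.

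**Figure D4:**
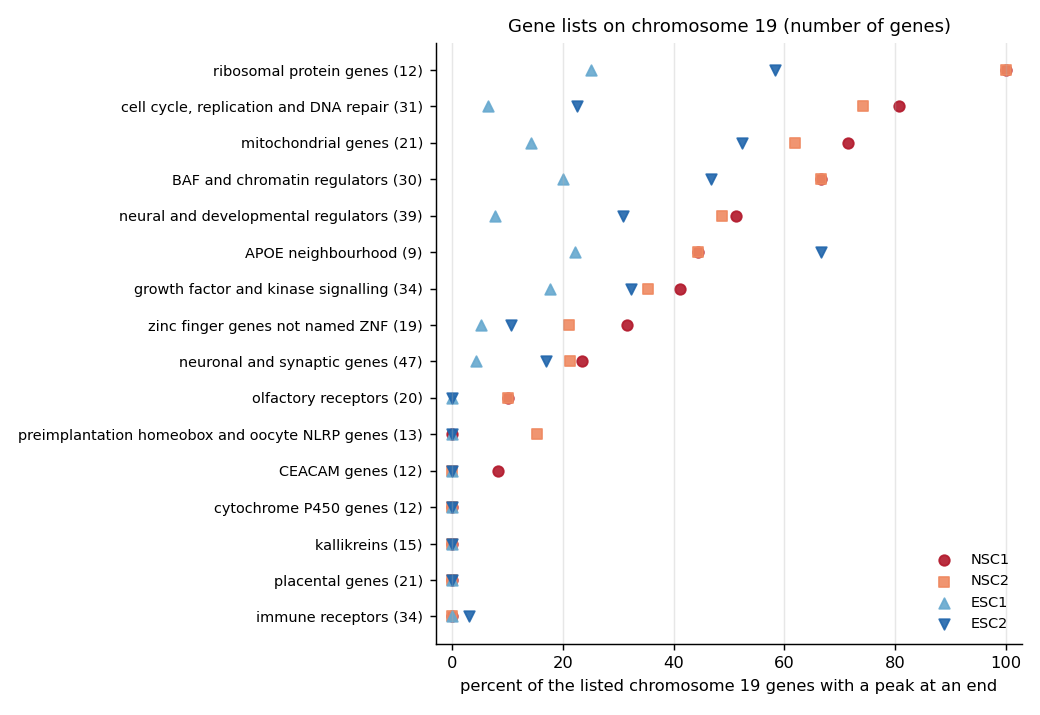
Percent of the genes of each list with a peak within 1 kb of an end, by library, with the number of listed chromosome 19 genes in brackets. NSC1 and NSC2 (circles and squares) reach 100% for ribosomal protein genes and 80.6% and 74.2% for the list of cell cycle, replication and repair genes, where ESC1 and ESC2 (triangles) lie at 6.45% and 22.6%.

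Among 30 BAF and chromatin genes, 20 had a peak at an end in each NSC library, against 6 in ESC1 and 14 in ESC2, and 6 were NSC-only. SMARCA4, the ATPase of the BAF complex, was NSC-only in the full lists at 5.99 and 5.79 in NSC1 and NSC2. So was BICRA, a subunit of the related GBAF complex, at 5.25 and 5.67, by the peaks at its ends. BICRA also had 1 peak in ESC1 within its locus, away from its ends. The maintenance DNA methyltransferase DNMT1 was NSC-only at 4.31 and 3.86, and MBD3, of the NuRD complex, at 6.99 and 3.98. These are middling or weak peaks: the SMARCA4 peaks stood at percentiles 56.14 and 56.05 of their lists. None of these 4 genes keeps a gene-end peak when each list is shortened to the 4054 strongest. The repressor CIC was shared at 52.8, 75.2, 13.8 and 43.6 in NSC1, NSC2, ESC1 and ESC2, and TRIM28, the corepressor of zinc finger proteins, at 29.6, 22.7, 2.37 and 13.7. DPF1, the neural relative of DPF2, had 1 peak inside its locus in NSC1 and 1 in NSC2, none at its ends and none in ESC.

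Of 39 neural and developmental regulators, 20 had a gene-end peak in NSC1 and 19 in NSC2, against 3 in ESC1 and 12 in ESC2. JUND, TCF3 (an E protein that pairs with proneural factors; 14.5 and 8.76 in NSC1 and NSC2) and RFX2 (a factor of ciliary genes; 10.4 and 9.85) were NSC-only, and so was NUMBL, a Numb-like Notch inhibitor, at 4.50 and 5.60. RFX1 was shared (33.5, 31.2, 9.53 and 18.8 in NSC1, NSC2, ESC1 and ESC2). TSHZ3, a zinc finger homeobox gene of the teashirt family, had no peak at its ends but 7 and 4 peaks within its locus in NSC1 and NSC2 and 0 in each ESC library. NFIC, of the nuclear factor I family, had 3 and 2 such peaks in NSC1 and NSC2 and 0 in ESC. NFIX had 1, in ESC1. MEIS3, a hindbrain HOX cofactor, had 2 and 1 in NSC1 and NSC2 and 0 in ESC. ONECUT3, a homeobox transcription factor, and NOTCH3, a Notch receptor, had no peak in any library, and the Notch ligand gene DLL3 had 1 weak peak in ESC2 (2.87). Of 47 neuronal and synaptic genes, 11, 10, 2 and 8 had a gene-end peak in NSC1, NSC2, ESC1 and ESC2, below the chromosome's shares. Counting peaks anywhere in the locus, 21, 22, 11 and 22 of them had one (44.7%, 46.8%, 23.4% and 46.8%), against 49.7%, 45.7%, 16.7% and 36.6% of all non-ZNF genes of the chromosome. SHANK1 and SYT3, a postsynaptic scaffold and a synaptotagmin, share 1 gene-end region present in all 4 libraries (37.8, 35.3, 11.6 and 29.4 in NSC1, NSC2, ESC1 and ESC2).

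Of 34 growth factor and kinase signalling genes, 14, 12, 6 and 11 had a gene-end peak in NSC1, NSC2, ESC1 and ESC2. STK11, which encodes the kinase LKB1, was NSC-only at 9.26 and 4.04, while AKT1S1, an inhibitor of mTOR complex 1, was shared. CCNE1, the G1 cyclin E, was NSC-only at 7.09 and 4.84. Around APOE, the apolipoprotein gene, 4, 4, 2 and 6 of 9 genes had a gene-end peak in NSC1, NSC2, ESC1 and ESC2. APOE itself had 1 in ESC2 (5.92), BCAM, a laminin receptor, was ESC-only (3.36 and 7.60 in ESC1 and ESC2), NECTIN2 was NSC-only (16.9 and 6.25 in NSC1 and NSC2), and TOMM40 was shared.

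Gene families of other tissues on chromosome 19 had few peaks or none. None of 21 placental genes, 15 kallikreins and 12 cytochrome P450 genes had a gene-end peak in any library, and of 34 immune receptor genes 1 had one, in ESC2. The 12 CEACAM genes had 1, in NSC1. Of 13 preimplantation homeobox and oocyte NLRP genes, 2 had a peak in NSC2 and none in the other libraries. LEUTX, TPRX1 and DUXA, homeobox genes known from the early human embryo, had none. The 2 of 20 olfactory receptor genes with a peak, OR7A5 and OR7C1, share 1 NSC-only region. Of 19 zinc finger genes not named ZNF, 6, 4, 1 and 2 had a gene-end peak in NSC1, NSC2, ESC1 and ESC2. The primate miRNA cluster of chromosome 19, with 46 miRNA genes in 116 kb, held 0 peaks in every library. A list of peaks shows absence only at the threshold used, so these genes may be bound below it.

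Peaks lay along most of the chromosome, but unevenly. Of 59 windows of 1 Mb, 4 held no peak in any library, those starting at 21, 22, 25 and 26 Mb. The windows starting at 20, 23 and 24 Mb held 8, 3 and 1 peaks summed over the libraries. The fullest, from 49 to 50 Mb, held 34, 32, 16 and 38 peaks in NSC1, NSC2, ESC1 and ESC2 and 55 non-ZNF genes. The next were those starting at 45, 48 and 47 Mb, with 104, 102 and 91 peaks summed over the libraries, and those starting at 4 and 17 Mb, with 85 each. In 18 windows ESC2 had at least as many peaks as the mean of the NSC libraries.

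CCAAT was more frequent in promoter windows with peaks of both cell types than in NSC-only ones. A RefSeq start was found for 966 of the 1160 genes, with chromosome 8 not used here. Of 74 promoter windows of chromosome 19 covered in all 4 libraries, 48 held CCAAT on either strand (64.9%, 53.5 to 74.8%), like HDGFL2 and HNRNPL above. Of 108 windows covered in both NSC libraries and in ESC2 but not ESC1, 69 held it (63.9%, 54.5 to 72.3%), against 48.7% on the other autosomes. Among 150 NSC-only windows 39.3% (31.9 to 47.3%) held it, and among 810 windows covered in no library 28.1% (25.2 to 31.3%), with 35.9% over all 1255 windows of the chromosome. At least 2 copies stood in 44.6% of the shared, 17.3% of the NSC-only and 7.90% of the uncovered windows. The same order held on the other autosomes, with 59.8%, 35.9% and 29.7%, so it was not peculiar to chromosome 19. Among CpG-rich windows, with an observed over expected CpG of at least 0.75, the shares on chromosome 19 were 64.3%, 38.2% and 20.1%. The classes also differed in GC, with chromosome 19 medians of 63.2% in shared, 68.8% in NSC-only and 63% in uncovered windows. CCAAT was not compared at equal GC, so a part of base composition in its frequency was not tested. The GC box GGGCGG, which the factor SP1 binds, was about as frequent in shared as in NSC-only windows (82.4% and 83.3%), against 58.1% of the uncovered ones and 66.0% of all.

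**Figure D5:**
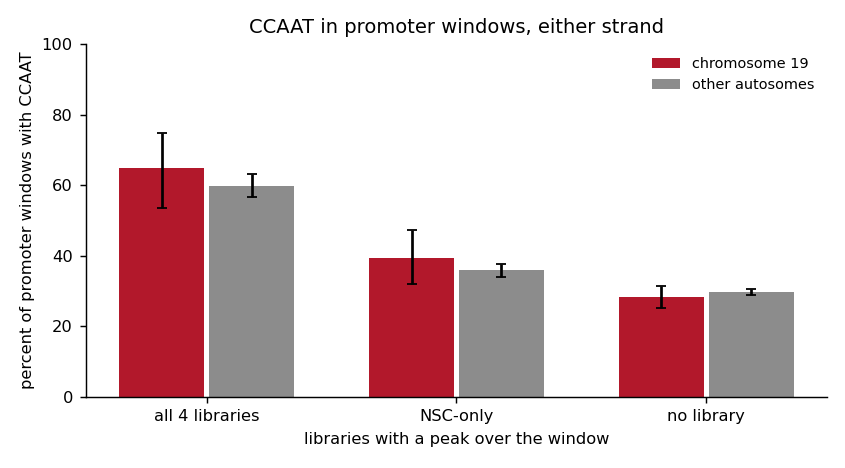
Percent of promoter windows (250 bp before to 50 bp after a RefSeq start) that hold CCAAT on either strand, by the libraries with a peak over the window, on chromosome 19 and on the other autosomes, with 95% Wilson intervals. Windows covered in all 4 libraries stand at 64.9% on chromosome 19 and 59.8% elsewhere, NSC-only windows at 39.3% and 35.9%.

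CpG content separated covered from uncovered promoters on chromosome 19, as it did on the other autosomes. The median observed over expected CpG was 0.918 in NSC-only windows, 0.834 in shared ones and 0.475 in uncovered ones. On the other autosomes these medians were 0.893, 0.819 and 0.484, so the order was not peculiar to chromosome 19. Below 0.5, peaks were rare in every library: of 247 windows between 0.25 and 0.5, NSC1 covered 2.02% (0.868 to 4.65%), against 9.53% on the other autosomes, and ESC2 covered 4.05%, against 5.76%. From 0.5 to 0.75, NSC1 covered 26.9% (21.8 to 32.8%), against 39.5%. NSC2 covered 25.7% there, against 34.1%, ESC1 7.76%, against 6.97%, and ESC2 22.4%, against 24.8%. From 0.75 to 1, NSC1 covered 54.8% on chromosome 19, against 53.9% elsewhere, and ESC1 covered 10.9% (8.25 to 14.2%), against 7.22%. NSC2 covered 47.0% in that range, against 48.0%, and ESC2 23.9%, against 24.6%. At or above 1, every library covered a larger share on chromosome 19 than elsewhere. NSC1 covered 64.9% (57.0 to 72.1%), against 58.2%, and NSC2 58.3% (50.3 to 65.8%), against 51.6%. ESC1 covered 7.28% (4.12 to 12.6%), against 4.98%, and ESC2 29.8% (23.1 to 37.5%), against 20.6%. Only the ESC2 interval lay clear of that of the other autosomes (18.9 to 22.4%).

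At the edge of the choice of members, the peak nearest to a ZNF gene that was kept lay 1447 bp from ZNF358 in NSC1, with a −log10 q of 5.25. The farthest that was left out lay 901 bp from ZNF701, with 4.37. In NSC2, ESC1 and ESC2 the nearest kept peaks lay 2254, 2248 and 2156 bp from a ZNF gene, and the farthest left out lay 282, 380 and 835 bp away.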

How the data were processed

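BAF45D binding was measured by CUT&Tag in 2 NSC and 2 ESC libraries. Reads were handled with FastQC, Trimmomatic, BWA 0.7.12 and MACS2 on hg38, as the submitters' processing notes say. Per the file headers, MACS2 2.1.0.20150420 called the peaks of each library without a control at q 0.05. The authors deposited the pileup at each summit as a signal value, −log10 p and −log10 q against the surroundings of the peak in that library, and the fold enrichment as a ratio to that background. None of these is scaled between libraries, so libraries were compared by presence of peaks and strengths were ranked within a list.

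Rows with the same start and end were joined into 1 peak. Peaks within 1 kb of a protein-coding ZNF gene were left out, using RefSeq genes of GRCh38.p14 (250 ZNF genes on chromosome 19). The annotation table also lists genes of alternate and unplaced scaffolds under a chromosome, with scaffold coordinates. They were recognised by a start that breaks the table's order along the chromosome, and left out: 58 genes for chromosome 19 and 618 for the other autosomes. Density was taken over the span from the first to the last annotated gene less the ZNF windows, 51.0 Mb on chromosome 19. Gene ends are both annotated ends of protein-coding genes, so a gene-end peak may be at a 3′ end or belong to a neighbour. Regions are merged overlapping peaks of the 4 lists. Comparisons of cell types used exact permutation tests of 2 against 2 libraries, which cannot give a two-sided p under 0.333. Intervals are 95% Wilson intervals, cover counting error only and treat regions as independent. Scripts ran in Python 3.11.15 with pandas 2.3.3 and scipy 1.17.1 and were tested on simulated peak lists. The members, gene lists and naming rule (the 6 strongest regions of each class, up to 4 genes per class of a list, and a fixed set of genes) were chosen with earlier results of these data known. The alternatives tried are given at the end. A peak list holds no counts for places without a peak, and no sequence was available for regions away from promoters, so none is shown.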

Additional observations from a re-analysis of the deposited data

Results flagged for a closer look

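Chromosome 19 was set against the other autosomes in 9 ways, and in 3 of them both NSC libraries moved one way and both ESC libraries the opposite way. Genes with a gene-end peak were fewer on chromosome 19 in NSC, by −2.45 and −2.22 percentage points in NSC1 and NSC2, and more in ESC, by 4.18 and 3.15 points in ESC1 and ESC2. The cell types differed by −6.00 points (exact permutation p = 0.333, two-sided, the smallest possible), and at equal list length the difference was 0.488. The percent of peaks inside genes was lower on chromosome 19 in NSC, by −8.79 and −7.76 points, and higher in ESC, by 10.02 and 6.30 points, a difference of −16.4 points that was not tested. The log2 density outside genes, chromosome 19 over the other autosomes, was −0.55 and −0.57 in NSC1 and NSC2, against 0.28 and 0.66 in ESC1 and ESC2, a difference of −1.03 that was not tested either. Groups of 2 libraries are too small to look for a library far from the others.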

How the results depend on the processing

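With 2 libraries per cell type no test could pass a threshold, so the tests show neither the size of differences nor their stability. The sizes are given by the means and by the values per library. The direction was turned round in 4 cases. At equal list length, NSC over ESC peak number was 0.675 and the NSC minus ESC difference in genes with a gene-end peak was 0.488 percentage points. Per gene, the density of chromosome 19 over other autosomes was 0.429 in NSC and 0.874 in ESC. The other moved values were as follows. With only peaks of −log10 q of at least 5, density over other autosomes was 1.89 in NSC and 4.83 in ESC, overlap 85.3% in the NSC pair and 94.3% in the ESC pair, NSC-only regions 22.7%, ESC-only regions 3.53%, and regions of NSC1 and NSC2 away from gene ends with an ESC peak 41.7%, against 10.2% on the other autosomes. At equal list length, density was 2.66 in NSC and 4.08 in ESC, ESC pair overlap 74.6%, NSC-only, ESC-only and shared regions 6.22%, 16.1% and 18.5%, and NSC regions away from gene ends with an ESC peak 76.5%, against 18.2% elsewhere. Density was 1.66 in NSC and 3.39 in ESC without the pericentromere, and 1.41 and 2.34 against chromosomes 16, 17 and 22. The NSC minus ESC difference in the share of chromosome 19 peaks at gene ends kept its direction, but its size changed. From 12.1 percentage points it went to 26.5 at equal list length and to 7.78 with a gene-end window of 2.5 kb.

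Leaving out a library moved the classes by their definition, since fewer lists then have to share a region. NSC-only regions ranged from 20.3 to 41.1%, ESC-only regions from 5.401 to 24.4%, shared regions from 11.7 to 24.7%, and NSC regions away from gene ends with an ESC peak from 20.9% (without ESC2) to 48.8% (without ESC1). With the replicate number as a replicate block, peak number NSC over ESC stayed 1.69 (exact sign-flip p = 0.5, the smallest that 2 pairs can give), and the gene-end difference −6.00 (p = 0.5). The labels do not say that numbers mark shared cultures. Of 70 named genes, 29 changed their number of libraries with a gene-end peak at equal list length, 18 with only peaks of −log10 q of at least 5, and 0 with peaks within 500 bp joined. SMARCA4, BICRA, DNMT1, MBD3, NUMBL, RFX2, STK11, CCNE1, XRCC1, POLR2E, RPS15 and RPL36, NSC-only in the full lists, had no gene-end peak in any library at equal list length. CDKN2D, RPS28 and JUND were not among the genes that changed. DNMT1 had no gene-end peak at a −log10 q of at least 5 either. In all, 88 of 122 values at other settings were counted as the same, 30 as moved and 4 as reversed. A value with an error beside it had to stay within that error, and the others had only to keep direction. Some of the 88 could not change. The replicate block leaves the values as they are. Leaving out a library of 1 cell type leaves the density and pair overlap of the other. The count of 88 is therefore no measure of stability. The results for regions of both NSC lists, by distance, by strength and by gene density, and those for CpG-rich windows, were chosen after seeing the data. Depth limits what absence means, since a place without a peak may be bound below the threshold.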

Other observations

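Small RNA genes lay near some chromosome 19 regions outside genes: 5 of 263 were within 1 kb of an snRNA gene (1.90%, 95% Wilson interval 0.815 to 4.37%), against 0.210% on the other autosomes. Of the other small RNA classes, 2 regions were near a tRNA gene (0.760%, against 1.20%), 1 near a miRNA gene (0.380%, against 0.228%) and 0 of 263 near a snoRNA gene, which allows up to 1.44% by the same interval (against 0.117%). The snRNA class was picked out after its values were seen. Long noncoding RNA genes were near 26.6% of these regions, against 29.7% on the other autosomes. ZNF pseudogenes, which the choice of members did not leave out, were near 2 of the 1203 regions.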
